A study of Rattus norvegicus with 22 samples.

Results

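Nfe2l2, the gene of the transcription factor Nrf2, Keap1, the gene of its inhibitor, and 8 of its target genes were followed in rat liver. The genes were Nfe2l2, Keap1, Nqo1, Akr7a3, Hmox1, Gclc, Gclm, Slc7a11, Txnrd1 and Srxn1, found by gene name among the probes that are no controls. They made up 10 of 26276 gene names and 12 of 30367 probes on the array. Slc7a11 and Txnrd1 had 2 probes each and the other genes had 1.

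Male Sprague–Dawley rats, all of the same young age at the start, were fed semi-synthetic diets for 3 or 14 months. Liver RNA of each rat was hybridised in Cy5 to a rat expression array. A common reference RNA from livers of healthy rats outside the experiment was hybridised in Cy3 on every array, with no dye swap. The reference rats were younger than the rats of any group were at sampling. CD 3 (n = 5) and CD 14 (n = 6) received the control diet, with lard as its main fat. BD 3 (n = 5) and BD 14 (n = 6) received the BASE-diet, in which salmon fat replaced most of the lard, rapeseed oil was raised and to which hydrolysed linden flower extract, pumpkin puree, Lactobacillus acidophilus LA-5 and a Bifidobacterium strain had been added. The diet was thus a mixture, and no group received 1 of its components alone. All values below are log2 ratios of the rat over the reference unless a Cy5 signal is named, so that 0 means a level equal to the reference.

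Nrf2 is kept low in resting cells because Keap1 binds it and hands it to a Cul3 ubiquitin ligase. Oxidants and electrophiles act on cysteines of Keap1, Nrf2 then accumulates, pairs with a small Maf protein and binds antioxidant response elements near its target genes. In liver this program is known for the defence against reactive drug metabolites and for the supply of glutathione. Much of the control lies in the stability of the Nrf2 protein, which an array of RNA does not measure.

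The probes of Nfe2l2, Keap1, Nqo1 and Hmox1, and the second of the 2 Txnrd1 probes, which disagreed, are shown so that the measured stretch of each transcript can be seen. Each has 60 bases. Positions are those of the array annotation on the rat build rn4, and exon boundaries on that build were not used here. Capitals at the end of the Nfe2l2 probe mark the letters of a stop codon.
Nfe2l2, chr3:58367137-58367196, minus strand: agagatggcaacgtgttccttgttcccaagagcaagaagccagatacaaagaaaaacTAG
Keap1, chr8:20260496-20260555, minus strand: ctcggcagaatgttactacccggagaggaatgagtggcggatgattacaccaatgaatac
Nqo1, chr19:37251727-37251786, minus strand: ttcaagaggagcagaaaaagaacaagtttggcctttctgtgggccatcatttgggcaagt
Hmox1, chr19:13969336-13969395, plus strand: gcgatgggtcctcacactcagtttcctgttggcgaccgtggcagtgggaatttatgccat
Txnrd1, second probe, chr7:23065196-23065255, minus strand: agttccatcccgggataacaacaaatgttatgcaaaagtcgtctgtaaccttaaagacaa
The other Txnrd1 probe was brighter, represents the gene below and is not printed. Its annotated stretch on rn4, chr7:23055528-23055561, covered 34 bases, fewer than the 60 bases of the probe. The Gclm probe held 9 G or C among its 60 bases (15%), against 21 for Gclc, 29 for Keap1 and 33 for Hmox1.

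Promoter sequences are shown for the 3 targets whose upstream sequence held an element of the kind that Nrf2 and related factors bind. RefSeq promoters of build GRCr8 (250 bases before to 50 after the start site) were found for 9 of the 10 genes, with 2 start sites for Txnrd1. The antioxidant response core TGACNNNGC, searched on both strands, occurred in the windows of Gclm, Txnrd1 and Nfe2l2. It occurred in 12.06% of all 33469 promoters. The AP-1-like letters TGANTCA, searched likewise, occurred in 7.33% of promoters and, among these genes, in Srxn1 alone, where there were 2 matches. A site can match both motifs at once, and no window of these genes did. The 250 bases before the start are printed with the match in capitals.
Gclm, chr2:213031885-213032134, plus strand, GRCr8: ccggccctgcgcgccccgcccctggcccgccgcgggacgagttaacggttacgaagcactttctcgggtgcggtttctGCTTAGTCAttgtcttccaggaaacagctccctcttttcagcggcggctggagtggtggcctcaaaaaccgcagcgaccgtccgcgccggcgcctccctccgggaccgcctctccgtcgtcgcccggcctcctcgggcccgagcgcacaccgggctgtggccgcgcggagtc
Srxn1, chr3:161064562-161064811, plus strand, GRCr8: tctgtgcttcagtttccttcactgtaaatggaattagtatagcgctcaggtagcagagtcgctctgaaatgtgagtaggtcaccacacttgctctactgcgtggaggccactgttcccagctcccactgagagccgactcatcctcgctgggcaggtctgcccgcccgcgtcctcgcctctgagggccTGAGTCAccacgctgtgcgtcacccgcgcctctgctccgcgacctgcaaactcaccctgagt
Txnrd1, chr7:22755905-22756154, minus strand, GRCr8: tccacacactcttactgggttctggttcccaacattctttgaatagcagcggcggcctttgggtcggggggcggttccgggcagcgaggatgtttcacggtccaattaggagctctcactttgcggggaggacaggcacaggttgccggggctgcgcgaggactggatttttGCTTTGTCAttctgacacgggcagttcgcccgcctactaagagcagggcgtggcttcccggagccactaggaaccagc
The matches began 172 bases before the start site in Gclm, 78 in Txnrd1 and 62 in Srxn1. The second Srxn1 match began 5 bases before the start site and ran past the printed end, and the Nfe2l2 match lay 38 bases after the start. A match is a description of letters and does not show binding.

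On 18 of the arrays between 52.35 and 77% of the spots were well above background. On the other 4, CD 3 rat 1, BD 3 rat 5 and CD 14 rats 1 and 3, the share was 88.77 to 93.59%. The dimmest array was CD 3 rat 4. The 5 slides differed in their scan day, and all BD 14 rats shared 1 slide with 2 CD 14 rats. Hepatocyte markers (Alb, Ttr, Apoa1, Cps1, Tat) were well above background on all 22 arrays, as the liver label requires. None of the 5 pancreas markers passed the filter on dim probes, which asks for signal throughout a group. Still, 4 were well above background on CD 3 rat 1, BD 3 rats 2 and 5 and CD 14 rats 1 and 3. The summed Cy5 signal of the 5 markers was 119.4 to 325.7 there and 15.65 to 106.9 on the other arrays. Fewer cells of a type and less RNA per cell cannot be told apart in these bulk samples.

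None of the genes passed the test in any comparison. All but Slc7a11, thus 9 of the 10 genes, were bright enough to be tested among 19434 probes. At an adjusted p under 0.05 by limma the test called 0 of 9 genes for BD 3 minus CD 3, BD 14 minus CD 14, CD 14 minus CD 3, BD 14 minus BD 3 and the diet by time interaction, and it called 0% of all probes in each of these. The F test over the 4 groups called 0 of 9 genes and 0.0257% of all probes. At an unadjusted p under 0.05, 2 of 9 genes passed for BD 3 minus CD 3, where 7.11% of all probes passed (Txnrd1 higher, as 4.99% of probes, and Nfe2l2 lower, as 2.11%). For BD 14 minus CD 14 it was 0 of 9 genes and 4.60% of probes (3.79% higher and 0.803% lower). For CD 14 minus CD 3 it was 3 of 9 genes and 10.1% of probes (Hmox1 and Txnrd1 higher, as 6.85% of probes, and Akr7a3 lower, as 3.29%). For BD 14 minus BD 3 it was 2 of 9 genes and 7.44% of probes (Nfe2l2 higher, as 4.76% of probes, and Akr7a3 lower, as 2.68%). For the interaction it was 0 of 9 genes and 4.80% of probes (2.48% higher and 2.32% lower), and for the F test 3 of 9 genes (Nfe2l2, Akr7a3, Txnrd1) and 10.5% of probes. The values of the 2 groups overlapped for each of the 9 genes in all 4 comparisons, while 0.756, 0.767, 0.515 and 2.26% of all probes had groups that did not overlap.

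**Figure D1:**
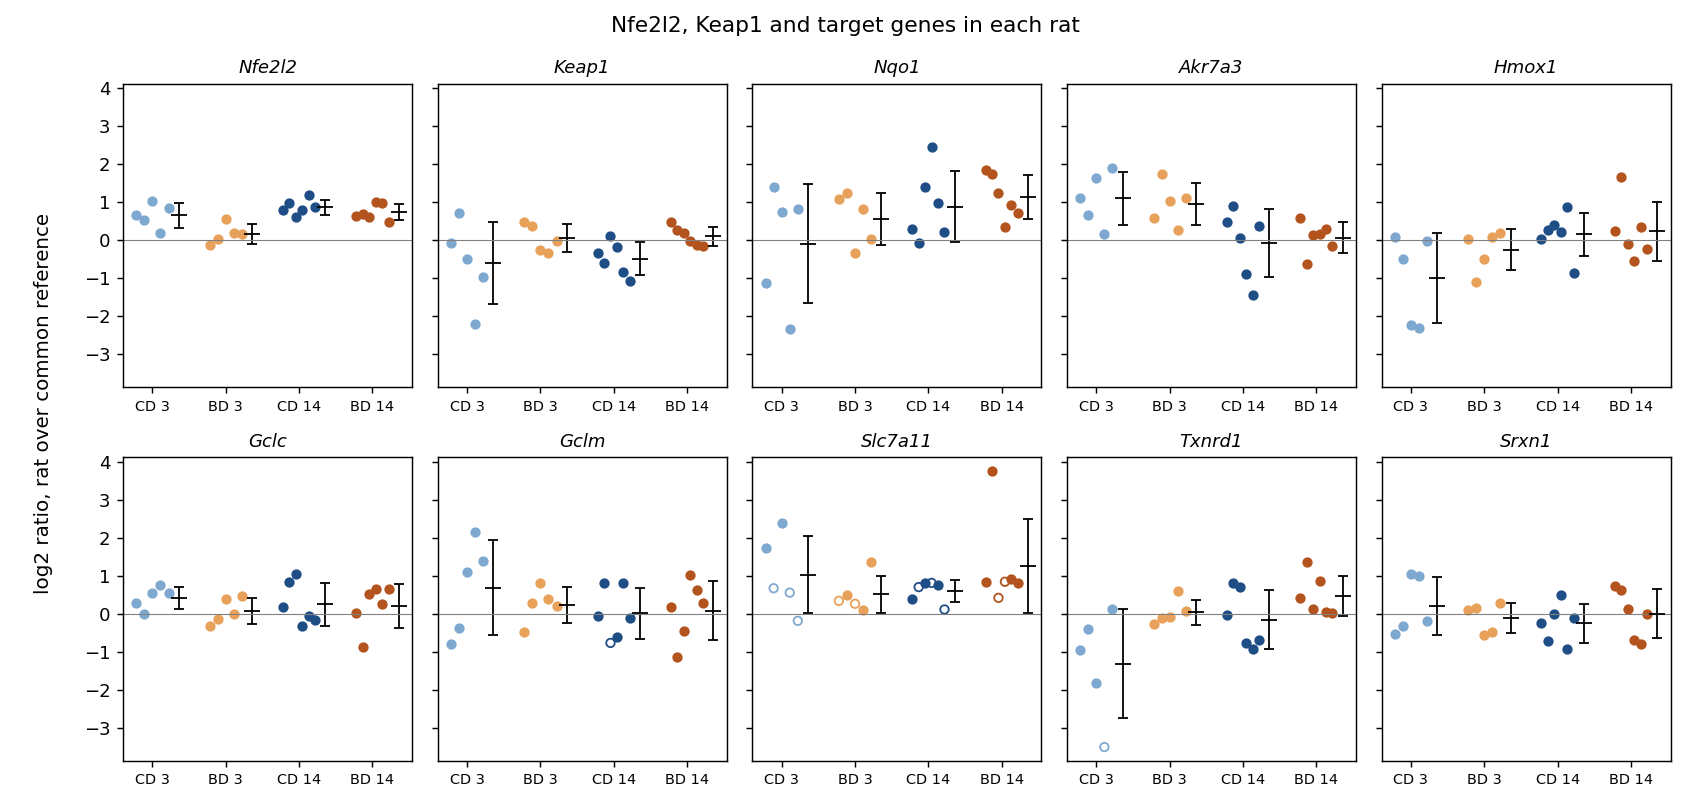
Log2 ratio of rat over common reference (vertical axis) of each gene in each rat, by group (horizontal axis), with open points where the spot was not well above background and black bars for mean and SD. Nfe2l2 had the lowest SD over the 4 groups together (residual SD 0.25), although Gclc varied less in CD 3, and the CD 3 rats had SDs over 1 in Keap1, Nqo1, Hmox1, Gclm, Slc7a11 and Txnrd1.

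After 3 months, 4 of the 9 genes were higher and 5 lower on the BASE-diet, with a median difference of -0.15 against 0.03 over all probes. With 1 array left out at a time, the median of the genes ran from -0.29 to 0.05. After 14 months, 7 were higher and 2 lower, with a median of 0.15 against 0.05 over all probes, of which 56.3% were higher. Separate fits took the slide into account, and block below means a fixed block unless a random block is named. CD 3 rats 2, 3 and 4 had a slide to themselves. Under the fixed block, differences that involve CD 3 therefore rest on CD 3 rats 1 and 5. Under the fixed block 5 were higher and 4 lower at either time. Under the random block, with an estimated correlation of 0.143 between arrays of a slide, 4 were higher at 3 months and 8 at 14 months. Of the 7 tested targets, 3 were higher and 4 lower at 3 months. At 14 months 6 were higher, and Gclc was at -0.05 (SE 0.27). The differences ranged from -0.49 (Nfe2l2) to 1.35 (Txnrd1) at 3 months and from -0.13 (Nfe2l2) to 0.62 (Txnrd1) at 14 months.

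**Figure D2:**
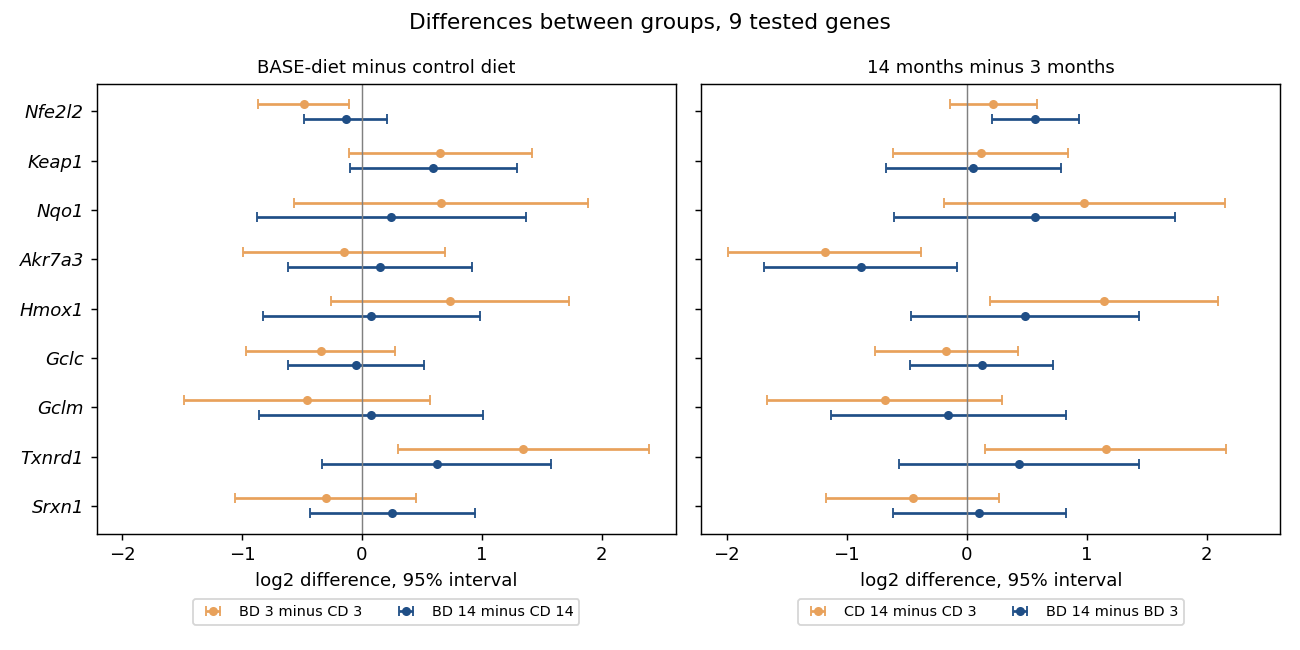
Log2 difference (horizontal axis) with its 95% interval for the 9 tested genes, BASE-diet minus control diet on the left and 14 minus 3 months on the right. In the diet panel the intervals of Nfe2l2 and Txnrd1 at 3 months exclude 0, and no value passed adjustment over all probes.

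Nfe2l2 encodes Nrf2 itself. Its log2 ratios were 0.66, 0.53, 1.04, 0.19 and 0.86 in CD 3 and -0.12, 0.03, 0.57, 0.20 and 0.16 in BD 3. Most BD 3 rats lay below most CD 3 rats, but the groups overlapped between 0.19 and 0.57. The BD 3 mean of 0.17 ± 0.26 (SD, n = 5) was 0.49 below the CD 3 mean of 0.66 ± 0.33 (SD, n = 5; SE 0.18, adjusted p = 0.540 by limma). At 14 months the levels ran from 0.60 over a median of 0.84 to 1.19 in CD 14 and from 0.48 over 0.67 to 1.02 in BD 14, a difference of -0.13 (95% interval -0.48 to 0.21). The residual SD of Nfe2l2 was 0.25, at percentile 8.40 among all probes tested and the lowest of the 9 genes. With the slide as a block the 3-month difference was -0.62 (95% interval -1.21 to -0.03, adjusted p = 0.428 by limma), and within the 1 slide that held both groups, with 2 BD 3 rats and 1 CD 3 rat, it was -0.70.

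Keap1 encodes the cysteine-rich sensor that holds Nrf2 down. Its log2 ratios were -0.07, 0.71, -0.48, -2.21 and -0.96 in CD 3 and 0.48, 0.39, -0.24, -0.34 and -0.03 in BD 3. CD 3 rat 4, the dimmest array, was lowest by far, and the BD 3 rats lay close together. The difference was 0.65 (SE 0.37, adjusted p = 0.780 by limma) and was 0.25 without CD 3 rat 4 and 0.31 with the slide as a block. From the Cy5 channel alone, quantile normalized, it was 1.35 (adjusted p = 0.0443 by limma), the 1 call of any of the genes under any setting. That setting leaves out the reference and called 262 of 19434 probes for this comparison, against 0 in the main fit. In CD 14 the values ran from -1.08 over a median of -0.47 to 0.12, and in BD 14 from -0.14 over 0.09 to 0.49. In the main fit the 14-month difference of 0.59 (SE 0.34, 95% interval -0.10 to 1.29, adjusted p = 0.952) was close in size to that at 3 months. Over the other settings, apart from leaving out single arrays, it ran from 0.22 to 0.78. The 3-month difference then ran from 0.31 to 1.35. Keap1 also moved with the base composition of the array's signal, as given below with Gclm.

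Nqo1 reduces quinones by a pair of electrons and is the target most used as a readout of Nrf2. Its log2 ratios were -1.12, 1.41, 0.76, -2.33 and 0.82 in CD 3 and 1.10, 1.24, -0.34, 0.82 and 0.04 in BD 3. The CD 3 rats thus spanned more than the whole range of BD 3. The difference was 0.66 (SE 0.59, adjusted p = 0.873 by limma) and 0.10 without CD 3 rat 4. It was 1.12 with the slide as a block and 2.29 within the slide that held 2 BD 3 rats and 1 CD 3 rat. At 14 months CD 14 ran from -0.06 over a median of 0.65 to 2.46 and BD 14 from 0.35 over 1.08 to 1.85, a difference of 0.25 (95% interval -0.87 to 1.36). With the slide as a block that difference was -0.59 (95% interval -2.25 to 1.06), and under the random block 0.0026. The residual SD of Nqo1, 1.00, was at percentile 93.9 and the highest of the 9.

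Akr7a3 encodes an aflatoxin aldehyde reductase of rat liver. It differed by -0.15 at 3 months (95% interval -0.99 to 0.69) and by 0.15 at 14 months (95% interval -0.62 to 0.92). Both signs turned without 1 array, to 0.05 without CD 3 rat 5 and to -0.12 without CD 14 rat 5. Its log2 ratios were 1.13, 0.68, 1.63, 0.18 and 1.92 in CD 3, and 0.59, 1.76, 1.05, 0.28 and 1.11 in BD 3. All 10 rats of the 3-month groups were above the reference. At 14 months they ran from -1.43 over a median of 0.23 to 0.90 in CD 14 and from -0.62 over 0.16 to 0.60 in BD 14. CD 14 minus CD 3 was -1.19 (SE 0.39, adjusted p = 0.292 by limma), and BD 14 minus BD 3 was -0.88 (SE 0.39, adjusted p = 0.623). A random slide block gave -1.20, -0.51 and, for BD 14 minus CD 14, 0.42. With the slide as a fixed block the first was -0.93 and the second turned to 0.70 (95% interval -0.49 to 1.90), and BD 14 minus CD 14 became 1.23 (95% interval 0.35 to 2.11, adjusted p = 0.435), which rests on the 2 CD 14 rats that shared a slide with BD 14, at -0.88 and -1.43.

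Hmox1 encodes the inducible heme oxygenase, which is also high in macrophages that clear red cells. Its log2 ratios were 0.10, -0.50, -2.23, -2.30 and -0.01 in CD 3, and 0.04, -1.09, -0.50, 0.09 and 0.20 in BD 3. CD 3 rats 3 and 4, both on the slide that held CD 3 rats alone, were the lowest of the 22. The difference was 0.74 (SE 0.48, adjusted p = 0.817 by limma), 0.41 without CD 3 rat 4, -0.82 with the slide as a fixed block (95% interval -2.13 to 0.50) and 0.48 with it as a random block. CD 14 values ran from -0.87 over a median of 0.26 to 0.87, and BD 14 values from -0.54 over 0.08 to 1.68. CD 14 minus CD 3 was 1.14 (SE 0.46, adjusted p = 0.396), but -0.60 with the slide as a fixed block, 0.89 with it as a random block and -0.86 between the 1 CD 14 and the 1 CD 3 rat of a common slide. Markers of Kupffer cells and macrophages (Cd163, Clec4f, Marco, Cd68, Csf1r, Vsig4, all 6 tested) averaged -2.88 to -0.64 per rat in CD 3, -2.14 to -0.42 in BD 3, -1.27 to -0.12 in CD 14 and -1.72 to -0.06 in BD 14. On the CD 3 arrays 4 to 6 of the 6 were well above background, and on all others 6 of 6. Their part in the Hmox1 values was not tested.

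Gclc and Gclm encode the catalytic and the modifier subunit of glutamate-cysteine ligase, the first step of glutathione synthesis, and Slc7a11 the cystine importer that feeds it. Gclc was 0.29, -0.0046, 0.55, 0.77 and 0.55 in CD 3 and -0.31, -0.14, 0.40, 0.01 and 0.47 in BD 3. The groups overlapped and differed by -0.34 (SE 0.30, adjusted p = 0.870 by limma). At 14 months Gclc ran from -0.32 over a median of 0.06 to 1.06 in CD 14 and from -0.86 over 0.40 to 0.67 in BD 14, a difference of -0.05 (95% interval -0.62 to 0.52). The differences were -0.73 at 3 months and 0.40 at 14 months once the slide was a fixed block, and -0.46 and 0.11 with a random block.

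Gclm was -0.79, -0.36, 1.11, 2.16 and 1.40 in CD 3 and -0.48, 0.29, 0.81, 0.40 and 0.20 in BD 3. CD 3 held both the lowest and the highest of these rats. The difference was -0.46 (SE 0.49, adjusted p = 0.900 by limma), 0.08 with the slide as a fixed block and -0.36 with it as a random block. Without CD 3 rat 4 it was -0.09 and without CD 3 rat 1 -0.83. At 14 months Gclm ran from -0.76 over a median of -0.07 to 0.82 in CD 14 and from -1.13 over 0.24 to 1.03 in BD 14, a difference of 0.07 (95% interval -0.86 to 1.01). From the Cy5 channel alone, without the reference, the differences were -1.61 at 3 months (adjusted p = 0.268 by limma) and 1.41 at 14 months (adjusted p = 0.649). The Gclm probe was dim, with Cy5 signals of 11.15 to 169.1, and was well above background on 21 of 22 arrays. Across the 22 arrays its log2 ratio moved with the base composition of the signal, taken as the median log2 ratio of 113 probes with at most 25% G and C minus that of 5152 probes with at least 50% (r = 0.68, Spearman's rho = 0.61). For Keap1 the same r was -0.79 (rho = -0.82), and for the other tested genes it lay between -0.42 (Txnrd1) and 0.24 (Gclc). The measure was highest on CD 3 rat 4 (1.35) and lowest on CD 3 rat 1 (-0.92). These correlations are descriptions over arrays that share a reference, and the part of base composition in the group differences was not tested.

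**Figure D3:**
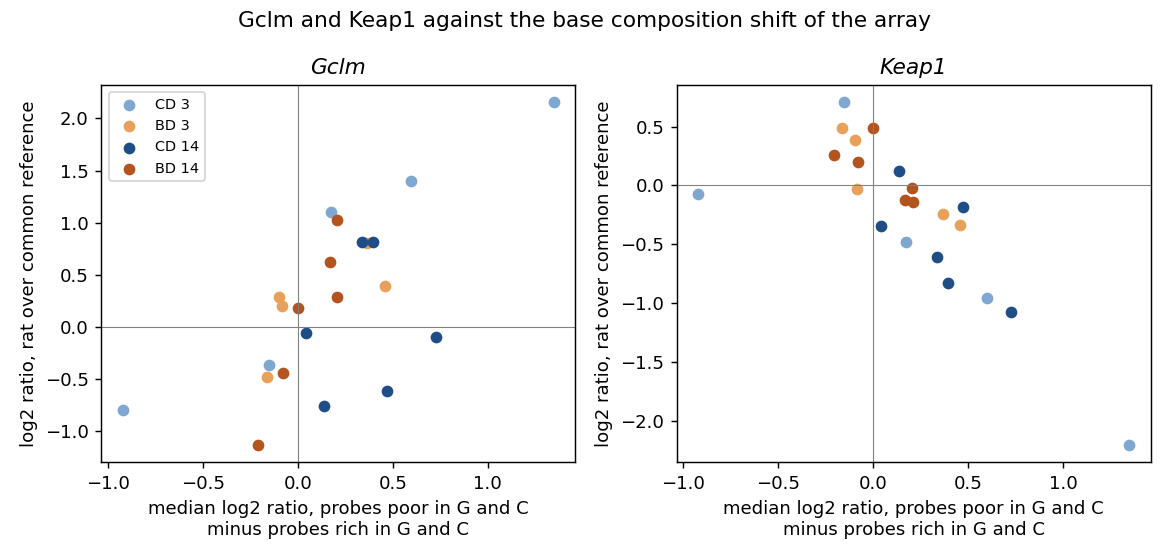
Log2 ratio of Gclm and of Keap1 (vertical axes) against the median log2 ratio of probes poor in G and C minus that of probes rich in G and C on the same array (horizontal axes), 1 point per rat. Gclm rose and Keap1 fell along this measure, with CD 3 rat 4 at 1.35 and CD 3 rat 1 at -0.92.

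Slc7a11 was too dim for the test. Its brighter probe was well above background on 12 of 22 arrays (2 of 5 CD 3, 3 of 5 BD 3, 3 of 6 CD 14 and 4 of 6 BD 14), and the other probe on 5. The brighter probe was at 1.75, 0.68, 2.39, 0.57 and -0.18 in CD 3, at 0.35, 0.49, 0.27, 0.11 and 1.37 in BD 3, and from 0.12 over a median of 0.74 to 0.82 in CD 14. For this probe the reference channel was well above background on 1 of 5 CD 3, 1 of 5 BD 3, 2 of 6 CD 14 and 0 of 6 BD 14 arrays. Most of these ratios, and all of BD 14, thus rest on a dim denominator. On the brighter probe BD 14 rat 2 reached 3.76 with a Cy5 signal of 140, whereas the other BD 14 rats lay between 0.43 and 0.93. On the other probe the same rat was at -1.94, so the probes disagreed.

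Txnrd1 encodes the cytosolic thioredoxin reductase. On its brighter probe the log2 ratios were -0.94, -0.39, -1.82, -3.50 and 0.14 in CD 3 and -0.27, -0.11, -0.08, 0.60 and 0.08 in BD 3. CD 3 rat 4 was not well above background there, and CD 3 spread far below BD 3. The difference was 1.35 (SE 0.50, adjusted p = 0.540 by limma), 0.80 without CD 3 rat 4 and 0.08 with the slide as a fixed block (95% interval -1.37 to 1.52), against 1.06 with it as a random block (95% interval -0.05 to 2.18). The second probe gave -0.49 (SE 0.46, adjusted p = 0.880), with -1.67, 0.63, 0.25, -1.18 and 0.39 in CD 3 and -0.88, -0.97, -0.91, -0.43 and -0.86 in BD 3. The probes thus differed in sign at 3 months. At 14 months the brighter probe ran from -0.91 over a median of -0.36 to 0.81 in CD 14 and from 0.04 over 0.27 to 1.36 in BD 14. Both probes then gave positive differences, at 0.62 (95% interval -0.33 to 1.58) and 0.36 (95% interval -0.51 to 1.23). With the slide as a block the brighter probe gave 1.31 at 14 months (95% interval 0.10 to 2.52, adjusted p = 0.602), again against the 2 CD 14 rats on the slide of BD 14. For CD 14 minus CD 3 the brighter probe gave 1.16 (SE 0.48, adjusted p = 0.416) and 0.61 without CD 3 rat 4, and the second probe -0.36 (SE 0.44). The brighter probe gave 0.07 once the slide was a fixed block and 0.94 with a random block.

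Srxn1 encodes sulfiredoxin, which repairs over-oxidised peroxiredoxins. Its log2 ratios were -0.53, -0.32, 1.07, 1.01 and -0.18 in CD 3 and 0.10, 0.17, -0.54, -0.48 and 0.30 in BD 3. The groups overlapped, with 2 CD 3 rats above all others. The difference was -0.30 (SE 0.36, adjusted p = 0.909 by limma), -0.09 without CD 3 rat 3, 0.48 with the slide as a fixed block and -0.16 with it as a random block. At 14 months Srxn1 ran from -0.92 over a median of -0.17 to 0.50 in CD 14 and from -0.79 over 0.07 to 0.75 in BD 14, a difference of 0.25 (95% interval -0.43 to 0.94).

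**Figure D4:**
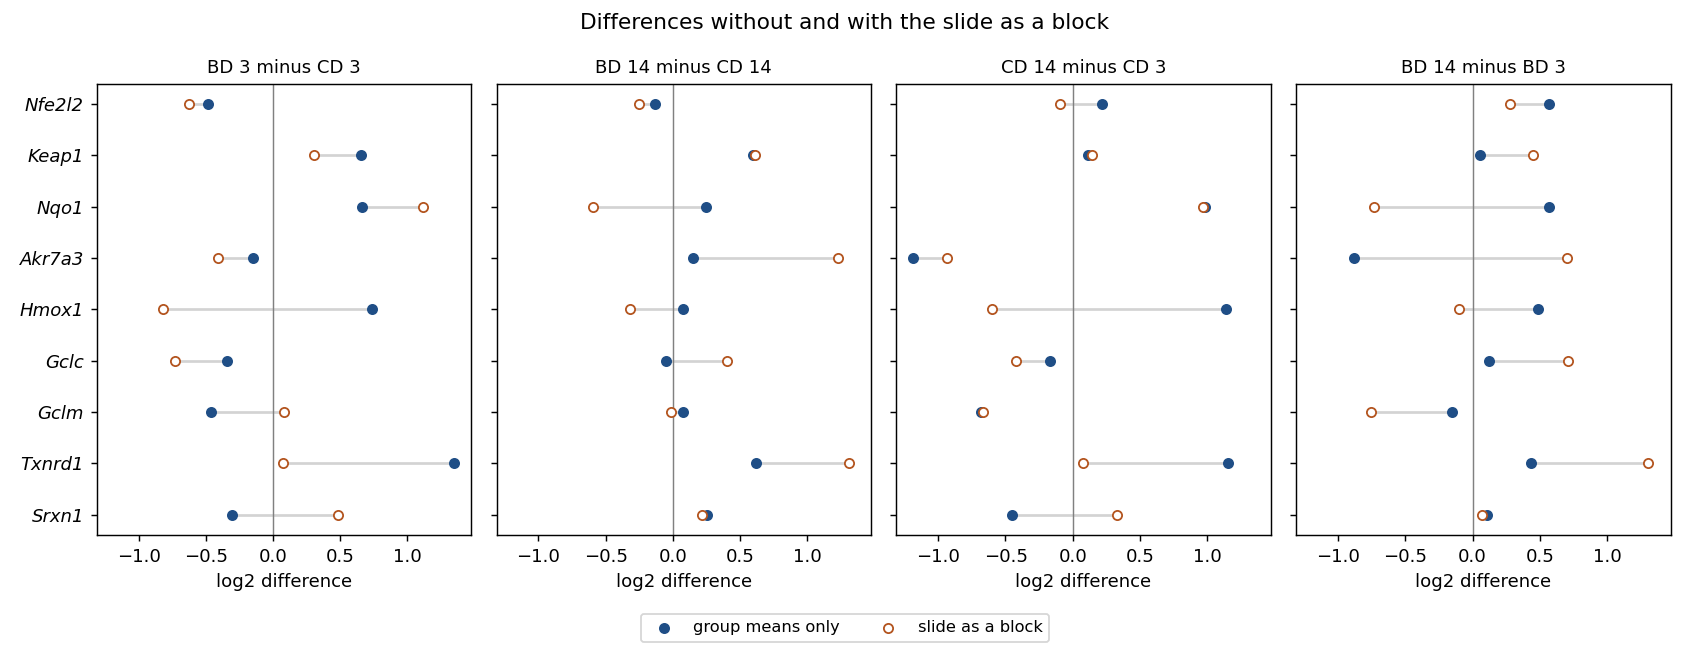
Log2 difference (horizontal axis) of the 9 tested genes in the 4 comparisons, from group means alone (filled) and with the slide as a fixed block (open). Hmox1 changed sign in 4 of 4 comparisons and Akr7a3 in BD 14 minus BD 3. Nfe2l2 stayed negative in both diet comparisons and changed sign in CD 14 minus CD 3 (0.22 to -0.10).

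The comparisons over time share their groups with those of the diets and are no independent evidence. Rats fed for 14 months were also older than those fed for 3, so age and length of feeding cannot be told apart. Over time, Nfe2l2 was 0.57 higher in BD 14 than in BD 3 (SE 0.175, adjusted p = 0.396 by limma), with BD 3 up to 0.57 and BD 14 from 0.48. BD 3 and BD 14 shared no slide, so that the blocked value rests on the slides they each shared with control-diet rats. On the control diet it was 0.22 higher at 14 months (95% interval -0.14 to 0.58). With the slide as a block the BASE-diet value was 0.28 and the control-diet value -0.10, against 0.53 and 0.17 with a random block. The interaction, the 14-month diet difference minus that at 3 months, was 0.35 for Nfe2l2 (95% interval -0.16 to 0.87) and ranged over the genes from -0.72 (Txnrd1) to 0.56 (Srxn1), with an adjusted p of 0.9995 for each. Without CD 3 rat 4 the Txnrd1 interaction was -0.17. The second Txnrd1 probe gave an interaction of 0.85, opposite in sign to the first. With the slide as a fixed block both ends turned (Txnrd1 1.24, Srxn1 -0.26), which a random block did not show (-0.19 and 0.37). Under the fixed block the interaction was 1.64 for Akr7a3 (95% interval 0.26 to 3.01, adjusted p = 0.377 by limma) and -1.71 for Nqo1 (95% interval -4.29 to 0.88), against 0.69 and -0.82 under the random block. Thus no gene's diet difference was shown to depend on the time.

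The genes did not vary as a block across the 22 rats. Over the 36 pairs of the 9 tested genes the median Pearson r was -0.03, from -0.69 to 0.72, and 5 pairs passed adjustment by Pearson's r (Keap1 with Nqo1, Txnrd1 and Gclm, Hmox1 with Txnrd1 and Gclm) and 0 by Spearman's rho. Hmox1 and Txnrd1 had r = 0.72 (permutation p = 4.0e-04, adjusted p = 0.0072 over 36 pairs) and rho = 0.43 (permutation p = 0.0467, adjusted 0.240), with r = 0.33 without the 2 rats farthest from the Hmox1 median, 0.71 within the slide of 6 arrays, 0.15 within that of 8 and 0.43 after centring on slides. Those 2 rats were picked by their Hmox1 values, which narrows the range, and the drop in r was not tested. Without CD 3 rat 4 alone r was 0.57. Keap1 and Gclm had r = -0.69 (permutation p = 3.5e-04, adjusted p = 0.0072) and rho = -0.58 (permutation p = 0.00499, adjusted 0.0898), with r = -0.63 without the 2 farthest rats, -0.74 and -0.46 within those slides and -0.61 after centring on slides. Without CD 3 rat 4 this r was -0.53. Both genes moved with the base composition measure, in opposite directions (r = -0.79 for Keap1 and 0.68 for Gclm). The part of that measure in the correlation of the pair was not tested. Keap1 and Nqo1 had r = 0.65 (permutation p = 0.0026, adjusted p = 0.0312) and rho = 0.59 (permutation p = 0.00469, adjusted 0.0898), with r = 0.35 without the 2 farthest rats, 0.51 and 0.29 within those slides, 0.38 without CD 3 rat 4 and 0.74 after centring on slides. Gclc and Gclm, subunits of 1 enzyme, had r = 0.49 (permutation p = 0.0199, adjusted p = 0.0895) and rho = 0.46 (permutation p = 0.0305, adjusted 0.240).

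Single rats held the extremes. CD 3 rat 4 was the lowest of the 22 for Keap1, Nqo1, Hmox1 and Txnrd1 and the highest for Gclm. The 5 hepatocyte markers averaged -1.91 on this array, the lowest of the 22 (the next was -1.24), and it had the lowest of the fitted array weights, 0.178. Their summed Cy5 signal on it was 4.344e+05, inside the range of 2.189e+05 to 7.328e+05 over the arrays. The part of these markers in the values of this rat was not tested. BD 14 rat 2 was the highest for Hmox1 (1.68, Cy5 signal 3526) and Txnrd1 (1.36) and the lowest for Gclc (-0.86) and Gclm (-1.13). It was thus at opposite ends for different targets.

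**Figure D5:**
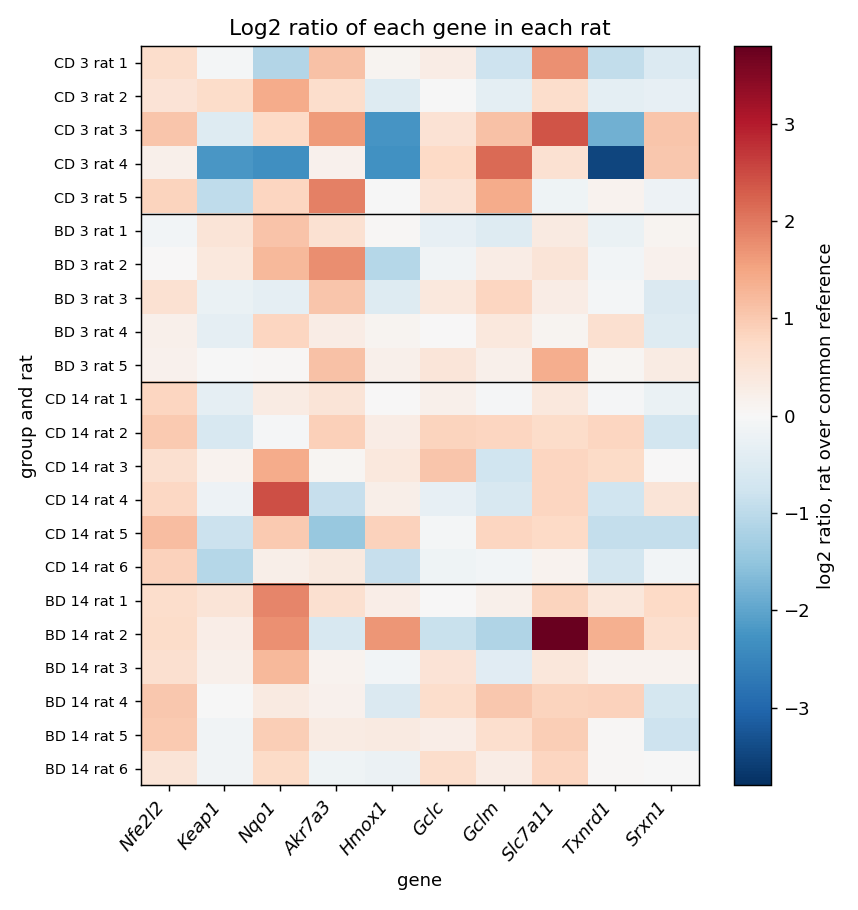
Log2 ratio of rat over common reference (colour) for each gene (horizontal axis) in each rat (vertical axis, lines between groups). CD 3 rat 4 and BD 14 rat 2 stand out in opposite directions for different genes, and no group shows 1 colour across the targets.

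Among 16469 genes, the profiles most like that of Nqo1 over the 22 arrays were Laptm4b (r = 0.92), an unnamed transcript, TC583734 (r = 0.91), and Creld2 (r = 0.90). Those most like Akr7a3 were a probe without a gene name, A_64_P077995 (r = 0.79), Pdxp (r = 0.78) and Pnkd (r = 0.78). These are rankings over arrays that share a reference and slides.

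The wider pathway did not pass the test either. Of 10 regulators, all tested, 0 passed adjustment over all probes in any comparison, and 8 of 10 were higher on the BASE-diet at 3 and at 14 months (median 0.37 and 0.23), where 53.6 and 56.3% of all probes were higher (median 0.03 and 0.05). Of 27 further targets, 26 were on the array by name and 25 were tested. None passed, and 13 of 25 were higher at 3 months and 15 of 25 at 14 months (median 0.08 and 0.19). At an unadjusted p under 0.05, 1 regulator was higher at 3 months and 2 at 14 months, against 4.99 and 3.79% of all probes, and 0 of 25 further targets passed in either. Over time, at the same unadjusted threshold, 2 of 10 regulators were higher in BD 14 than in BD 3, against 4.76% of all probes. Likewise 3 of 25 further targets were higher in CD 14 than in CD 3, against 6.85%.

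The small Maf genes, whose proteins pair with Nrf2 on DNA, were named with Prdx1 by the rule on the smallest p among the regulators and further targets. At 3 months Mafg was 0.93 higher on the BASE-diet (SE 0.37, adjusted p = 0.586 by limma), with CD 3 at -0.93, -0.17, -1.13, -2.31 and -0.31 and BD 3 at -0.03, 0.03, -0.35, 0.07 and 0.05. Prdx1, a peroxiredoxin, was 1.29 higher (SE 0.63, adjusted p = 0.7104), with CD 3 rats 3 and 4 at -2.38 and -4.58 and the other CD 3 rats between -0.01 and 0.25, and 0.47 higher without CD 3 rat 4. Mafg was 0.59 higher without that rat. Prdx1 was at -0.17 and Mafg at 0.42 once the slide was a fixed block, and at 1.06 and 0.81 with a random block. The other small Maf values were 0.77 for Mafk (SE 0.43) and -0.10 for Maff (SE 0.39) at 3 months and 0.50 for Mafg (SE 0.34) at 14 months. At 14 months Mafk was 1.23 higher (SE 0.39, adjusted p = 0.842), from -0.41 to 0.93 in CD 14 and from 0.38 to 3.01 in BD 14. Maff was 0.85 higher (SE 0.36, adjusted p = 0.952), from -0.41 to 0.87 in CD 14 and from 0.40 to 2.71 in BD 14. The highest Mafk and Maff values were both those of BD 14 rat 2, and without it the differences were 0.91 and 0.52. Both probes were dim, with Cy5 signals of 5.67 to 422 for Mafk and 8.03 to 127 for Maff. With normexp background correction and loess the differences were 0.47 and 0.18, with the slide as a fixed block 1.66 and 0.37, and with it as a random block 1.40 and 0.74.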

How the data were processed

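Liver RNA of 22 rats was measured on 2-colour Agilent arrays. The authors deposited scanner output made with Agilent Feature Extraction (10.7.3.1 per the submitters' notes, 10.10.1.1 per the file headers), which holds processed intensity values after dye normalization and a log10 ratio of Cy5 over Cy3. The labels put the rat in Cy5 and the methods name the dyes otherwise, and the labels were followed. Log10 ratios were turned into log2, non-uniform spots dropped and spots averaged per probe. Of 30367 probes, those whose Cy5 signal was well above background throughout 1 or more groups were tested (19434). The probe brightest in Cy5 represented a gene. The tests used lmFit and eBayes of limma 3.58.1 under R 4.3.3, fitted to the 4 group means, with Benjamini-Hochberg adjustment over all probes tested and a threshold of 0.05. P-values measure the spread between rats of a group. The fit was tested on simulated data with 200 changed probes. It recovered 31% (3-month diet comparison) and 41% (14-month) of changes of log2 size 1. Of changes of size 2 it recovered 79% and 82%. Correlations between genes were tested with 100000 permutations (scipy 1.17.1). The number of arrays limits the precision. Named genes were all 10 genes, plus the 2 pathway genes of smallest p in each diet comparison and the 3 genes most correlated with Nqo1 and with Akr7a3. The genes and lists were chosen with earlier results of these data known. The deposited table of probes that the authors selected by their own test was not used here.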

Additional observations from a re-analysis of the deposited data

Results flagged for a closer look

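In BD 14, the Slc7a11 log2 ratio of rat 2 (3.764) stood apart from those of the other 5 rats, the next highest being 0.93 and the lowest 0.43. The gap was 0.851 of the range of the group, past the 95% critical value of Dixon's test. The reference channel of this probe was well above background on 0 of 6 BD 14 arrays, and the other probe gave -1.94 in this rat. Of 40 gene-by-group sets examined 1 was so far out, and about 2 are expected by chance.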

How the results depend on the processing

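The count of tested genes called was 0 in all comparisons under every setting tried and without each array in turn, except that the Cy5 channel alone, quantile normalized, called 1 gene (Keap1) for BD 3 minus CD 3, where it called 262 of 19434 probes. The methods' F test called 1 probe of 19434 and 0 of the 9 genes. Without CD 3 rat 5, 93 probes were called for BD 3 minus CD 3 and 205 for CD 14 minus CD 3, none of them 1 of the genes. Rat numbers name different animals. Deviations of same-numbered rats correlated with a median of -0.017 over 31 pairs (-0.26 to 0.29), and with the rat number as a replicate block 0 genes were called. Among differences whose unadjusted p was under 0.05 in either setting, Gclm BD 14 minus BD 3 changed from -0.15 to 1.54 with Cy5 alone, with the slide as a fixed block Hmox1 CD 14 minus CD 3 became -0.60 and Akr7a3 BD 14 minus BD 3 0.70, the second Txnrd1 probe gave -0.49 (BD 3 minus CD 3) and -0.36 (CD 14 minus CD 3), and within 1 slide Hmox1 and Txnrd1 CD 14 minus CD 3 were -0.86 and -0.83. The cause was not tested. A further 49 of 839 differences under other settings, and 29 of 1078 without 1 array, changed sign with an unadjusted p over 0.05 in both settings. The slide as a fixed block changed the sign of 19 of 49 differences and as a random block of 1 of 49. Settings added after the data were seen were leaving out the 4 arrays with most spots above background, leaving out the 2 with most non-uniform spots, and the slide with both control groups. Dim signal limits Slc7a11, Gclm, Mafk and Maff.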
